A study of Mus musculus with 2 samples.

Results

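Basophil-lineage cells were followed among sorted cells of mouse hindlimb muscle by the mRNAs of 2 serine proteases that basophils store in their granules, Prss34 and Mcpt8. A cell was a member if it had at least 500 detected genes, at most 10% mitochondrial counts and at least 3 unique molecular identifiers (UMIs, each standing for 1 captured mRNA molecule) of Prss34 and Mcpt8 summed. By that rule 350 of 5302 kept cells were members, 60 of 2666 without surgery and 290 of 2636 after it. Only 112 of the 350 had 10 or more UMIs of the pair, 33 without surgery and 79 after it. These high-count cells carried the IgE receptor genes of the lineage and the remaining 238 largely did not, so the gene comparisons below rest on the high-count cells. That choice was made after seeing the data. The members were chosen by their measured Prss34 and Mcpt8 UMIs, so the levels of these genes are given as a description.

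The mice carried Fsp1-Cre and the R26R-EYFP reporter. In this cross Cre follows the promoter of Fsp1 (S100a4) and leaves a lasting YFP label in each cell that has expressed it and in its descendants. Hindlimb muscle was digested and cells positive for YFP and negative for CD11b, a surface integrin of myeloid cells, were sorted and captured on the 10x Genomics droplet system, with 5000 cells captured according to the design text. One library came from mice with no treatment (day 0) and the other from mice 28 days after hindlimb ischemia surgery (day 28), and genotype, tissue and sort gate were shared. Age, sex and the number of animals behind each library are not given in the labels. With 1 library per group no test between the days was possible, and every interval is an exact 95% interval that covers counting error only. Differences between animals, sorts and library preparations cannot be told apart from the difference between the days.

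Basophils are rare granulocytes of the blood that arise from granulocyte and monocyte progenitors, with GATA2 and C/EBPα among the factors that direct the choice. They carry the high-affinity IgE receptor, whose crosslinking by antigen releases histamine and newly made lipid mediators and cytokines such as interleukin-4 and interleukin-13. They share the receptor and many enzymes with mast cells, which stay in tissues and have a protease set of their own. In muscle they are sparse, and in other tissues they enter during inflammation and repair.

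The promoters of 5 genes whose values carry the results are shown because the GATA factors of this lineage bind sites built on the letters GATA. Each line gives the 250 bases before the RefSeq transcription start on build GRCm38.p6, 5′ to 3′ on the gene's own strand, with a match to AGATAA or TGATAA on either strand in capitals. The windows lie at chr17:25298144-25298393 on the plus strand for Prss34, and on the minus strand at chr14:56085198-56085447 for Mcpt8, chr1:173227230-173227479 for Fcer1a, chr19:11623720-11623969 for Ms4a2 and chr3:20242182-20242431 for Cpa3.
Prss34: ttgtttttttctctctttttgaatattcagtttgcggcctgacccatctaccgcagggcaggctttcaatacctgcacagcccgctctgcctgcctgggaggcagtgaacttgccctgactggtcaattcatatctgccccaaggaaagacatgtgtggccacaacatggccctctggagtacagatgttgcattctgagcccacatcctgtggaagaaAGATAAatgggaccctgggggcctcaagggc
Mcpt8: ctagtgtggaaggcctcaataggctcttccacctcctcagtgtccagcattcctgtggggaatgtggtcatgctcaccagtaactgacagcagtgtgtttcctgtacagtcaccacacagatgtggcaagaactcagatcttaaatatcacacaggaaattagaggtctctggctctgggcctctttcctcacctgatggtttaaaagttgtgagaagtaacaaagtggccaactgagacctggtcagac
Fcer1a: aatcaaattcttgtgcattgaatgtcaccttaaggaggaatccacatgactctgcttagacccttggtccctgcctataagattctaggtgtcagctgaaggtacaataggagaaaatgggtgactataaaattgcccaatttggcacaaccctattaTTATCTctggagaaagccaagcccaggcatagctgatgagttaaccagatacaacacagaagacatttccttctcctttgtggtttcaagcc
Ms4a2: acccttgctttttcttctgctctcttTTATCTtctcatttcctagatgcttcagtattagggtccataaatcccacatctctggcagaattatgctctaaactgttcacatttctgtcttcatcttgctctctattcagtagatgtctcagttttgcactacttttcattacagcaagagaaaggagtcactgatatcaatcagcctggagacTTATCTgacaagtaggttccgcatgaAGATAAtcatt
Cpa3: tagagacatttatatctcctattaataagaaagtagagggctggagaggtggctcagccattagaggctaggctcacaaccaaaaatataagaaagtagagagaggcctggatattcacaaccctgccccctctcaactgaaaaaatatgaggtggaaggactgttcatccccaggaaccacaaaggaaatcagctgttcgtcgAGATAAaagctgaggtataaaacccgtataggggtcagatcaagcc
Prss34 had 1 match, beginning 31 bases before the start, Fcer1a 1 at 92 bases, Cpa3 1 at 46 bases and Ms4a2 3, at 224, 37 and 11 bases. Mcpt8 had none in this window. Over the 12 basophil marker genes, all of which were found in RefSeq, 6 had a match in the 300 bases from 250 before to 50 after a start, and of their 15 promoters 7 had one. Among all 32851 promoters of that length 6115 had one (18.6%). A match describes letters only, and binding was not measured here.

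The libraries differed in depth. The kept cells had a median of 4844 UMIs at day 0 and 12387.5 at day 28, and the lowest total in the files was 3001 and 4175. The libraries shared 13 cell barcodes, 2 of them on a member and none on a member in both. Doublets were scored and kept, and 0 and 2 of the high-count cells stood among the 56 top scores of each library.

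The amount of protease mRNA split the members at a gap below 19 UMIs at day 0 and with no gap at 10 UMIs at day 28. At day 0 the sum of Prss34 and Mcpt8 was 0 in 2168 kept cells, 1 in 394, 2 in 44, 3 to 5 in 22 and 6 to 9 in 5, and the lowest cell above that gap had 19. At day 28 the same bins held 1319, 721, 306, 188 and 23 cells, and the cells above them began at 10, 10, 12, 15, 17 and 20. The next cell had 49, so the threshold of 10 fell within the tail at day 28 only. Cells of that tail with 10 to 20 UMIs are part of the day 28 sums. The threshold of 3 thus cut through the shoulder of a distribution that began at 0: just outside it, 44 and 306 cells had 2 UMIs, and just inside it 13 and 112 cells had 3. High-count cells had a median of 481 UMIs of the pair at day 0 (range 19 to 1695) and 214 at day 28 (10 to 1224), which was 6.45% and 2.54% of all their UMIs.

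**Figure D1:**
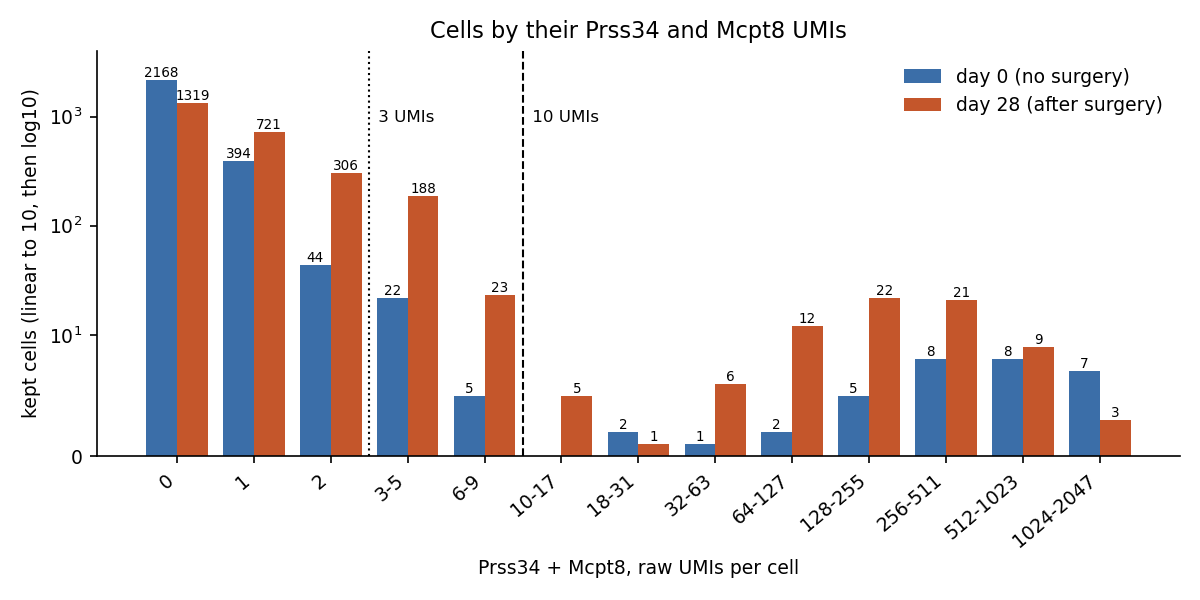
Kept cells (y axis, number of cells, linear to 10 and log10 above) by their summed Prss34 and Mcpt8 UMIs (x axis, bins) in each library, with the thresholds of 3 (dotted) and 10 (dashed) marked. The bar for 3 to 5 UMIs continues the fall from 0, with 22 cells at day 0 and 188 at day 28, and a separate mode lies above 100 UMIs.

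Outside the high-count cells the protease mRNAs were spread thinly over the 4 other cell types checked. T cell marker cells (at least 3 UMIs of Cd3d, Cd3e and Cd3g), which are not known to make these proteases, held a UMI of the pair in 8.02% of 1097 cells at day 0 and 13.8% of 123 at day 28 once each cell was thinned to 3000 UMIs (median raw depth 3948 and 6437). B-lineage cells marked by Cd79a and Cd79b (7.44% and 16.1%), erythroid cells (6.98% and 16.4%) and Elane-positive progenitors (9.38% and 15.7%) were at like shares, each higher at day 28 than at day 0. Low-count members, with 3 to 9 UMIs of the pair, were deep cells: their median depth was 23833 UMIs at day 0 and 24690 at day 28. Of the 27 and 211 low-count members, 21 and 168 had at least 5 UMIs of Elane, the neutrophil elastase of granulocyte and monocyte progenitors.

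The label was then set beside genes that the rule did not use. The threshold of 10 UMIs was chosen with these values known, so they describe the cells and are no independent check. Fcer1a encodes the IgE-binding chain of the receptor. After thinning it was detected in 90.9% (75.7 to 98.1) of high-count cells at day 0 and 78.5% (67.8 to 86.9) at day 28, against 3.70% and 0.948% of low-count members. Elane cells outside the members, which should lack it, held it in 0.429% and 0.116% (median raw depth 18285 and 18608, against 8607 and 9672 in high-count cells). Ms4a2, the signal-amplifying chain, gave 93.9% and 83.5% in high-count cells, and 3.70% and 0.948% in low-count ones. No UMI of either gene was found in 25 of 27 and 191 of 211 low-count members, while only 1 of 33 and 3 of 79 high-count cells lacked both. Low-count members still held more of some lineage genes than Elane cells after thinning: Cpa3 was detected in 29.6% and 9.0% of them against 2.58% and 2.31%, and Hdc, which makes histamine, in 25.9% and 17.5% against 9.87% and 7.40%. The basophil label is used here for the high-count cells, which carried the receptor genes, and the 238 low-count members are named only by the rule.

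Markers of other cells were at low levels for some lineages and not for others. Of 11 mast cell markers 7 had no UMI in either library, including the proteases Mcpt4, Mcpt1, Mcpt2 and Tpsab1, and Cma1 and Tpsb2 had 0 at day 0 and 1 at day 28. The summed mast cell list of 3154 and 772 CPM (counts UMIs per 1000000 UMIs summed over the cells) was almost all Cpa3, which basophils also express. Macrophage markers summed to 61.3 and 334 CPM against 2111 and 1889 in the cells that were not members, and no high-count cell had 3 UMIs of the C1q genes. Erythroid markers summed to 297 and 306 CPM (other cells 10607 and 4664) and B-lineage markers to 178 and 258 (3003 and 2866). Dendritic cell markers came to 720 and 637 CPM (other cells 6707 and 1291). Other lists were not below the rest of the sort in both libraries. Granulocyte and monocyte progenitor markers summed to 9357 and 5478 CPM (other cells 5403 and 8190). Megakaryocyte markers summed to 245 and 130 CPM (117 and 76.0), and fibroblast, endothelial and muscle markers to 116 and 99.0 (113 and 48.4). Neutrophil markers summed to 2967 CPM at day 0 against 2690 in the other cells, mostly from 1 cell, and to 241 against 1996 at day 28. T and NK cell markers came to 994 and 736 CPM (other cells 1075 and 390), mostly Nkg7 at 888 and 722. Eosinophil markers came to 184 and 2154 CPM (other cells 102 and 38.4), at day 28 mostly Prg2. Single cells departed from this: 2 cells at day 0 had at least 3 Cd3 UMIs, 5 and 2 had at least 3 Cd79 UMIs, 4 and 16 had at least 5 of Elane, and 2 cells at day 28 had at least 10 of Prg2, the eosinophil major basic protein. Whether these cells are doublets was not tested.

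**Figure D2:**
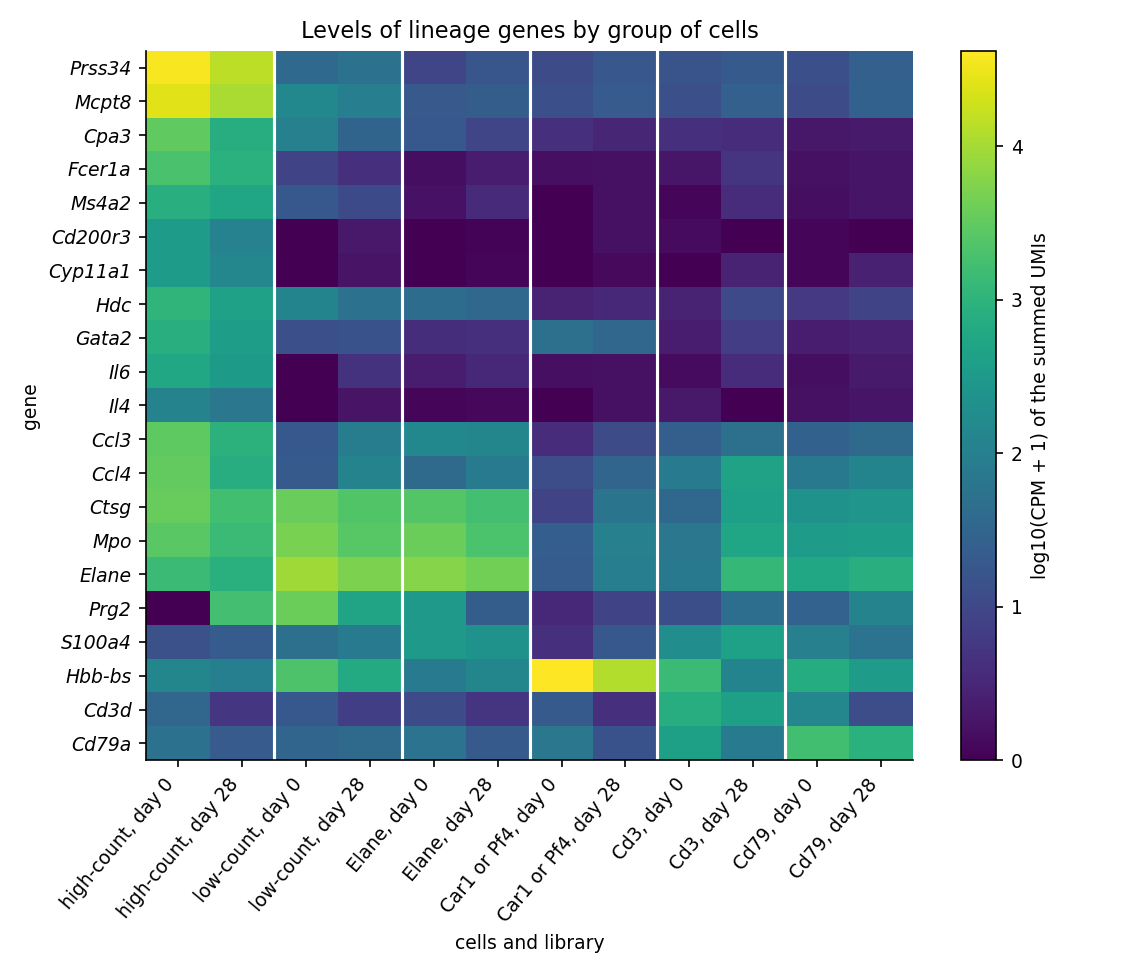
Level of 21 genes (rows) as log10 of CPM + 1 (colour) in 6 groups of cells in each library (columns). Receptor, histamine and cytokine genes of the basophil lineage stand out in the high-count columns (Fcer1a at 1992 CPM at day 0 and 913 at day 28).

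Both genes of the sort left little trace in the high-count cells. S100a4, whose promoter drives the Cre, had 4 UMIs at day 0 and 19 at day 28 (12.9 and 21.4 CPM, in 2 of 33 and 11 of 79 cells), against 236 and 262 CPM in the cells that were not members. The other cells thus had far more S100a4 mRNA than the basophil-lineage cells in both libraries. Itgam, which encodes the CD11b of the gate, had 3 UMIs in 3 cells at day 0 and 1 UMI in 1 cell at day 28. The YFP label stays in a cell and its descendants once Cre has been expressed, and neither reporter mRNA was analysed here.

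By the raw rule the share of members among kept cells was 2.25% (1.72 to 2.89) at day 0 and 11.0% (9.83 to 12.3) at day 28, a ratio of 4.89 (3.69 to 6.57). For the high-count cells it was 1.24% (0.854 to 1.73) and 3.0% (2.38 to 3.72), a ratio of 2.42 (1.59 to 3.75). With day 0 cells shallower than every day 28 cell left out, the ratio was 1.64 (1.06 to 2.58). The direction was thus the same by each count of cells, and its size depended on which cells were counted and how deeply. Shares of a sort also depend on its other cells: T cell marker cells made up 41.1% of kept cells at day 0 and 4.32% at day 28, and Elane cells 8.74% and 32.8%. Their part in the larger share was not tested.

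High-count cells at day 28 had lower levels of most genes that define the lineage. A gene was taken as measured with at least 20 UMIs over both sums and a mean of 50 CPM, and as higher or lower past 2-fold. It could reach that mean through its level in 1 library alone, so the counts here and in the lists below are descriptions. Of 2303 measured genes 166 were lower at day 28 (7.21%) and 37 higher (1.61%), with a median log2 ratio of -0.15 over all of them. Setting that median to 0 gave 113 lower and 60 higher. Among the 12 basophil markers 10 were measured and 7 were lower, with a median of -1.27, and none was higher. Without the 2 genes of the rule, 5 of 8 were lower and the median was -1.20. Among the 633 genes of the high-count cells that were at least 3 times their level in marker cells of other lineages, 128 (20.2%) were lower and 4 (0.632%) higher. A gene was held to that reference in the library where it was higher, so it could pass through day 0 alone, and the shares are a description with no weight against the 7.21% of all genes. All 350 members gave 88 lower (3.76%) and 15 higher (0.641%) of 2341 genes, and 70 (14.8%) lower and 4 (0.844%) higher of the 474 above that reference; 211 of the 290 cells in their day 28 sum were low-count. Protease mRNA takes up part of every total, and without Prss34 and Mcpt8 in the totals 200 of 2399 genes were lower and 37 higher.

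**Figure D3:**
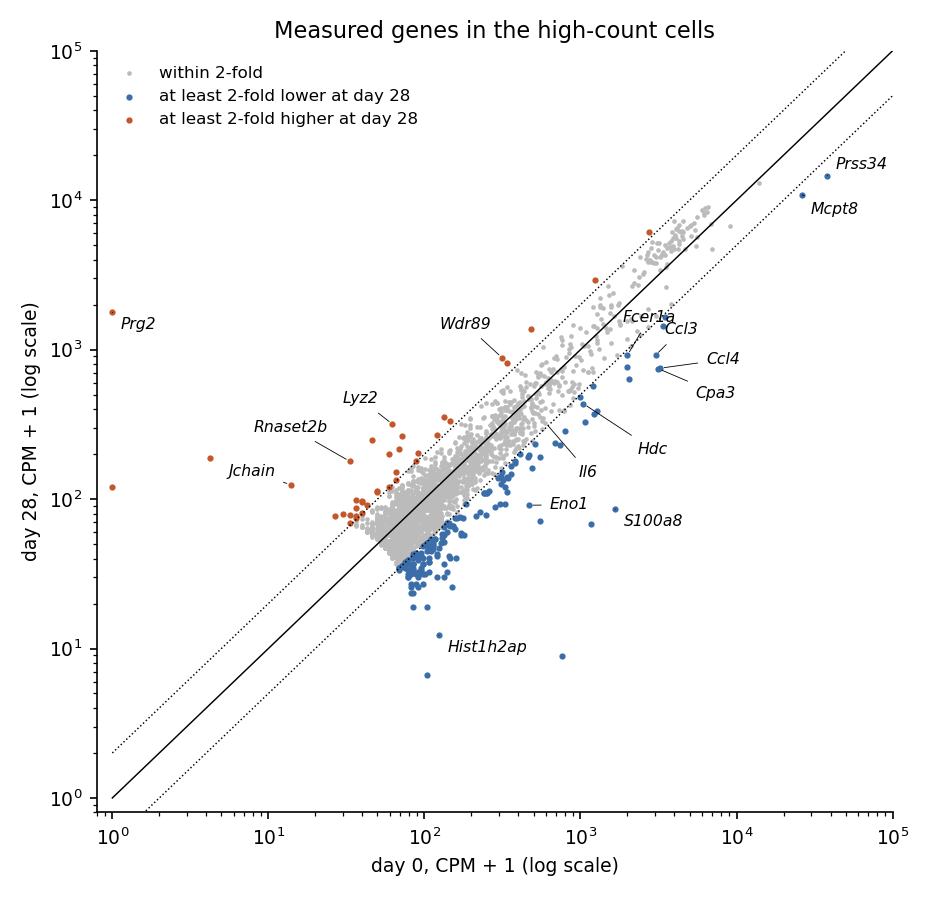
CPM + 1 of 2303 measured genes summed over the high-count cells at day 0 (x axis, log10) and day 28 (y axis, log10), with the 2-fold lines dotted and selected genes labelled. Of these, 166 genes lie below the lower line and 37 above the upper one, and the labelled basophil genes lie mostly below the diagonal.

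Granule proteases stood lower at day 28. Prss34 ranged from 0 to 1034 UMIs per cell at day 0 with a median of 308, and from 0 to 800 with a median of 110 at day 28; as a share of each cell's UMIs the medians were 420 and 129 per 10000. Mcpt8 ranged from 16 to 661 (median 244) and from 10 to 700 (median 93). The cells of both days overlapped over nearly the whole range for both genes, and the day 28 cells reached as high as the day 0 cells in raw UMIs of Mcpt8. Summed, Prss34 gave 38211 and 14585 CPM and Mcpt8 26330 and 10846, log2 ratios of -1.39 and -1.28 that describe the genes used to choose the cells.

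Cpa3, the carboxypeptidase of basophil and mast cell granules, was not used in the rule. It had 0 to 135 UMIs per cell at day 0 (median 24) and 0 to 52 at day 28 (median 6), or 3141 and 746 CPM, a log2 ratio of -2.07. Ctsg, cathepsin G, a protease shared with neutrophil progenitors, had 0 to 97 UMIs (median 25) and 0 to 81 (median 11), or 3484 and 1642 CPM (-1.08). For both genes the middle of the day 28 cells lay below that of day 0 while the ranges overlapped. Cd63, a membrane protein of secretory granules, was at 2409 and 1243 CPM (-0.95), and Srgn, the proteoglycan core that packs granule proteases, at 2725 and 1873 (-0.54). Of the 10 granule genes, all measured, 5 were lower past 2-fold and none higher, with a median of -1.02. Without the 2 genes that chose the cells, 3 of 8 were lower and the median was -0.75.

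**Figure D4:**
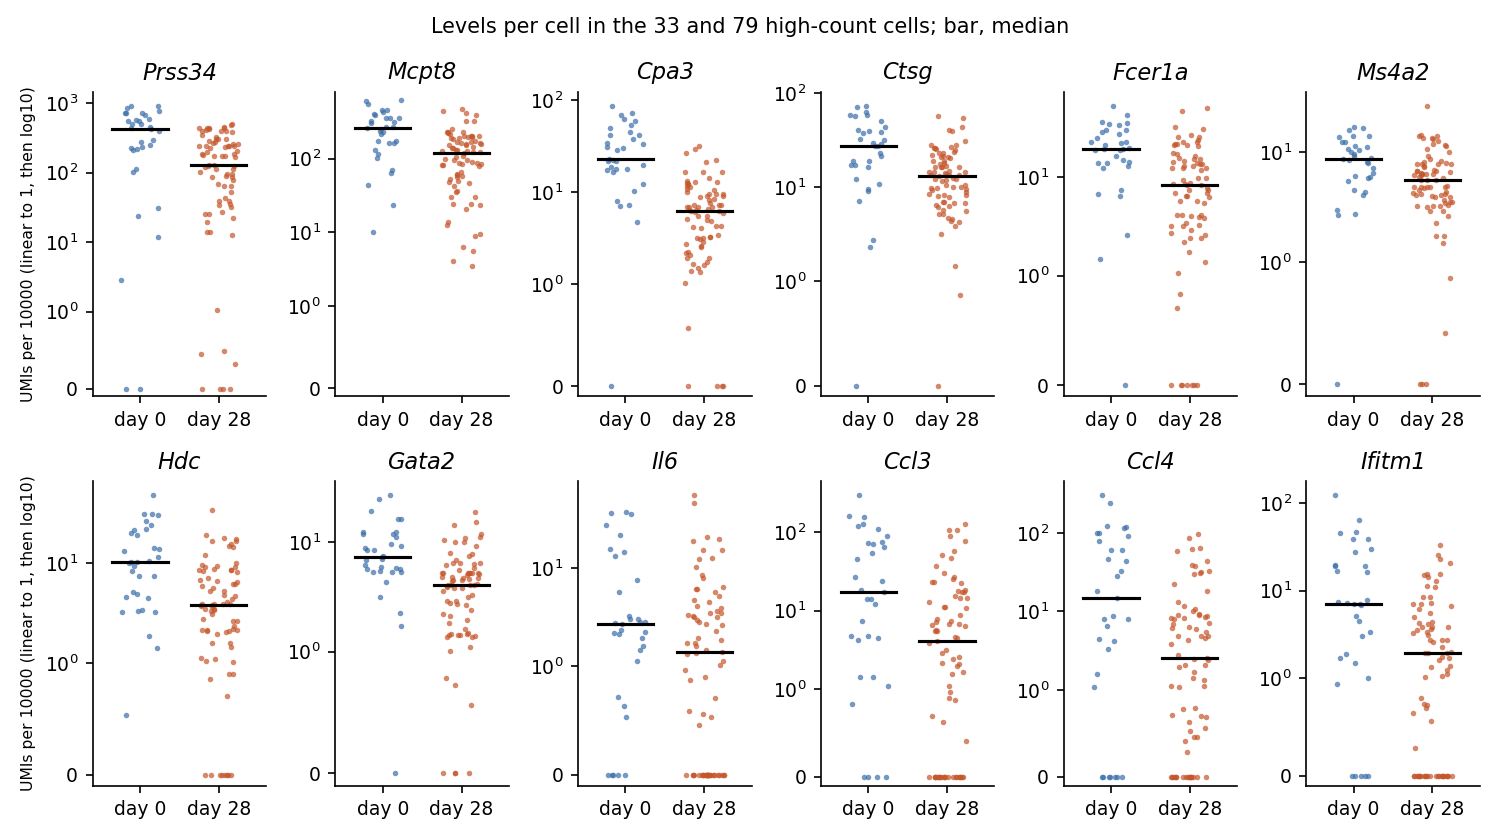
UMIs per 10000 UMIs (y axis) of 12 genes in each high-count cell, 33 at day 0 and 79 at day 28 (x axis), with a bar at the median. The median of Cpa3 is 22.9 at day 0 and 6.22 at day 28 and that of Fcer1a 19.4 and 8.22, and the cells of both days overlap for each gene.

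The 3 chains of the IgE receptor were all lower at day 28. Fcer1a had 0 to 65 UMIs per cell at day 0 (median 13) and 0 to 54 at day 28 (median 8), or 1992 and 913 CPM, a ratio of 0.46 (0.41 to 0.51). Ms4a2 had 0 to 20 (median 7) and 0 to 16 (median 6), or 830 and 526 CPM, a ratio of 0.63 (0.54 to 0.74). Fcer1g, the signalling chain shared with other Fc receptors, had 1 to 33 (median 14) and 1 to 30 (median 9), or 1705 and 922 CPM (log2 -0.89). Of the 3, Fcer1a was lower past 2-fold, and the cells of both days overlapped for each chain. The adaptors Lat2 (387 and 219 CPM, -0.82) and Lat (190 and 121, -0.65), which carry the signal on from the receptor, were lower by less than 2-fold. Only 5 of the 16 genes of the receptor and its signalling chain were measured, 1 of them lower past 2-fold and none higher, with a median of -0.82.

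Other surface receptors varied more. Cd200r3, an activating receptor of basophils and mast cells, had 0 to 16 UMIs per cell at day 0 (median 3) and 0 to 7 at day 28 (median 1), or 339 and 111 CPM (-1.61). The low-affinity IgG receptor Fcgr3 was at 355 and 166 CPM (-1.09). By contrast the receptors of growth and survival signals stayed within 2-fold: Il3ra, which binds interleukin-3, was at 197 and 137 CPM (-0.52), and its partner chain Csf2rb at 145 and 96.7 CPM (-0.59). Crlf2, a chain of the receptor for the epithelial cytokine TSLP, was nearly level (-0.12). Of 23 receptor genes 8 were measured, 3 of them lower and none higher. Il1rl1, the interleukin-33 receptor, had 15 and 37 UMIs, and Itga2, the integrin detected by the basophil antibody DX5, had none in either library.

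Secreted factors had the lowest median of the functional lists. Ccl3, a chemokine that draws monocytes and other leukocytes, had 0 to 106 UMIs per cell at day 0 (median 16) and 0 to 93 at day 28 (median 3), or 3025 and 916 CPM (-1.72). Ccl4, its close relative, had 0 to 170 (median 15) and 0 to 69 (median 3), or 3242 and 750 CPM (-2.11). A minority of day 28 cells thus reached levels of the day 0 cells while most had few or no UMIs. After thinning, Ccl3 was detected in 75.8% and 60.8% of high-count cells, against 4.11% of 1096 and 9.65% of 114 T cell marker cells outside the members (median raw depth 3947 and 5935.5) and 30.9% and 27.3% of Elane cells. Ccl4 was detected in 72.7% and 58.2% of high-count cells. It was also found in 8.76% and 38.6% of the T cell marker cells and 8.15% and 16.1% of Elane cells. Of 15 listed genes 10 were measured, 7 were lower and none higher, with a median of -1.59. The same list had medians of -0.19 in Elane cells, where 4 genes were measured, and 0.32 in all cells that were not members. The difference between these medians was not tested.

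Il6, a cytokine of the acute response, had 0 to 39 UMIs per cell at day 0 (median 2) and 0 to 36 at day 28 (median 1), or 594 and 324 CPM (-0.87). Il4, the type 2 cytokine for which basophils are best known, had 0 to 4 UMIs per cell at both days, with medians of 1 and 0, or 116 and 66.4 CPM (-0.81). Detection after thinning was 57.6% and 49.4% for Il6 and 42.4% (25.5 to 60.8) and 24.1% (15.1 to 35) for Il4. In Elane cells thinned detection of Il6 was 0.858% and 1.16%, and Il4 had a UMI without thinning in 1 of 233 (0.429%) and 4 of 865 (0.462%) cells, against 63.6% and 46.8% of the high-count cells. Both mRNAs were thus more frequent in the high-count cells than in Elane cells of greater depth. Il13 came to 9 UMIs in 6 cells at day 0 and 1 UMI in 1 cell at day 28, too few for a level.

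The remaining secreted factors were lower as well. Csf1, which sustains macrophages, was at 96.9 and 39.4 CPM (-1.30), Osm, oncostatin M, at 491 and 161 (-1.61), and Tnf at 90.4 and 30.4 (-1.57). The chemokines Ccl9 (739 and 231 CPM, -1.68) and Ccl6 (139 and 31.5, -2.14) followed Ccl3 and Ccl4. Tgfb1, which many leukocytes make, differed least (-0.33). Among 13 angiogenic and repair factors 5 were measured, with a median of -0.81. Hgf, hepatocyte growth factor, was at 74.3 and 33.7 CPM (-1.14), and Anxa1, an annexin that limits inflammation, at 852 and 426 (-1.0).

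Enzymes of histamine and lipid mediators stood lower in part. Hdc, which makes histamine from histidine, had 1 to 26 UMIs per cell at day 0 (median 8) and 0 to 18 at day 28 (median 4), or 1043 and 433 CPM (-1.27). Every day 0 cell had a UMI of Hdc. Cyp11a1, the first enzyme of steroid synthesis, was at 342 and 137 CPM (-1.32), and Alox15, a lipoxygenase, at 142 and 40.5 (-1.81). The leukotriene enzymes Alox5 (310 and 161 CPM, -0.95) and Alox5ap (1114 and 709, -0.65) stayed within 2-fold. Of 12 listed genes 7 were measured, 3 were lower and none higher, with a median of -0.95.

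The list of transcription factors of the lineage and its neighbours had a median nearer to 0 than the lists above. Single factors such as Gata2 and Cebpb differed as much as many genes of those lists. Gata2 had 0 to 23 UMIs per cell at day 0 (median 6) and 0 to 19 at day 28 (median 4), or 778 and 390 CPM (-1.0). Cebpa had 0 to 12 (median 4) and 0 to 10 (median 3), or 397 and 251 CPM (-0.66). The cells of both days overlapped throughout for both factors. Cebpb, a C/EBP factor induced by inflammatory signals, was at 797 and 285 CPM (-1.49) and was the 1 of 11 measured factors that passed 2-fold. Gata1, the GATA factor of the erythroid, mast cell and eosinophil lineages, was at 80.7 and 18 CPM (-2.16), just under the mean set for measured genes. Runx1 (-0.34) and Spi1 (-0.21), which act across myeloid cells, and Lmo4 (0.29) were nearly level, and the list median was -0.34.

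Genes of early progenitors were the functional list with a median above 0. Cdk6, a kinase that drives entry into the cell cycle, was at 229 and 418 CPM (0.87), Myb, a factor of immature blood cells, at 80.7 and 154 (0.93), and Sox4 at 142 and 208 (0.55). None of the 6 measured genes of 14 passed 2-fold in either direction, and their median was 0.38. The same list had medians of 0.06 in Elane cells and 0.18 in Car1 or Pf4 cells, with 3 genes measured in each. In all cells that were not members it was 0.47 over 5 genes, so a median above 0 was not particular to the high-count cells. Cd34, the stem and progenitor surface protein, was at 80.7 and 64.1 CPM (-0.33), with a UMI in 18.2% and 15.2% of thinned high-count cells against 12.9% and 16.2% of Elane cells. Kit, the receptor for stem cell factor that mature mast cells keep and basophils lose, had 4 and 21 UMIs, in 4 of 33 and 16 of 79 cells. A minority of cells at both days therefore held progenitor mRNAs, at shares close to those in Elane cells for Cd34.

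Some high-count cells held many cell cycle mRNAs. With 10 or more UMIs of the 26 cell cycle genes after thinning as a mark, 9 of 33 cells at day 0 (27.3%, 13.3 to 45.5) and 22 of 79 at day 28 (27.8%, 18.3 to 39.1) passed. The shares were 44.6% and 27.2% in Elane cells and 75.0% and 64.1% in cells with at least 5 UMIs of Car1 and Pf4, an erythroid and megakaryocyte gene. Over all cells that were not members they were 19.6% and 32.4%, both inside the intervals of the high-count cells. The list summed to 2567 and 2269 CPM in high-count cells. At the lowest level among T, B-lineage and erythroid marker cells it summed to 703 and 1871 CPM. The part of free RNA in these values was not tested. Of 21 measured cycle genes 3 were lower and none higher, with a median of -0.21. Mki67, a marker of dividing cells, was at 74.3 and 93.4 CPM, a ratio of 1.26 (0.78 to 2.09) whose interval holds 1.

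Immediate early genes, which respond within minutes to stimuli including tissue digestion, were lower at day 28. Jun had 0 to 46 UMIs per cell on both days, with medians of 17 and 5, or 1986 and 759 CPM (-1.39). Junb was at 1211 and 370 CPM (-1.71), Egr1 at 303 and 91.1 (-1.74) and Ier3 at 2053 and 633 (-1.70). Of 12 measured genes 8 were lower and none higher, with a median of -1.33. The list was lower in the other cells too, with medians of -0.69 over all cells that were not members, -1.13 in Car1 or Pf4 cells and -0.17 in Elane cells. This shift accompanies the cytokine values above, several of which belong to genes of fast response, and its part in them was not tested.

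Single genes of other lists were lower as well. Eno1, a glycolytic enzyme with near-identical copies that make its counts uncertain, was at 465 and 90.0 CPM (-2.37), although the 8 measured glycolysis and hypoxia genes had a median of -0.32 and only 1 was lower. Its ratio of 0.194 (0.145 to 0.256) stood beside 0.273 in Elane cells, 0.210 in Car1 or Pf4 cells and 0.361 in all cells that were not members, so Eno1 was lower in each group. Serpinb1a, an inhibitor of granule proteases, was at 329 and 92.2 CPM, a ratio of 0.280 against 0.652 in Elane cells and 0.977 in the cells that were not members. Ifitm1, an interferon-inducible membrane protein, had 0 to 87 UMIs per cell at day 0 (median 6) and 0 to 35 at day 28 (median 2), or 1272 and 390 CPM, a ratio of 0.307 against 1.10 in Elane cells. It was the only 1 of 4 measured interferon-stimulated genes past 2-fold, and Ifitm2 stood at -0.93. The neutrophil genes S100a8 (-4.30) and S100a9 (-4.12) were lower only through 1 day 0 cell, which held 98.6% and 97.5% of their day 0 UMIs.

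Genes with higher levels at day 28 were few and partly came from single cells. Prg2 had 0 UMIs at day 0 and 1579 at day 28 in 8 of 79 cells, with 66.1% of them in 1 cell. Against a floor of 3 UMIs over the day 0 cells that is a log2 ratio of at least 7.52. Epx, eosinophil peroxidase, had 1 and 167 UMIs and Prg3 0 and 106. In the eosinophil list 3 of 4 measured genes were thus higher, led by a pair of cells that also passed the protease threshold, and the fourth, Alox15, was lower. Lyz2, lysozyme of macrophages and granulocytes, was at 61.3 and 316 CPM (2.37), with 51.6% of its day 28 UMIs in 1 cell. Rnaset2b, a ribonuclease gene with a near-identical neighbour among which reads could be split, was at 32.3 and 178 CPM, a ratio of 5.51 (2.92 to 11.7), and its copy Rnaset2a gave 3.41 (2.09 to 5.88). Both were higher at day 28 in Elane cells too, with ratios of 2.88 and 2.98, and in all cells that were not members, with 2.93 and 2.98.

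The secretory machinery kept its level. Calr, the calcium-binding chaperone of the endoplasmic reticulum, had 0 to 60 UMIs per cell at day 0 (median 7) and 0 to 87 at day 28 (median 16), or 1569 and 1974 CPM (0.33). Hsp90b1 (0.48) and Sec61b (0.53), a chaperone and a subunit of the channel that moves new proteins into the reticulum, were also within 2-fold. All 16 listed genes were measured, 1 was lower and none higher, and their median was -0.09. Of the 8 measured MHC genes none passed 2-fold, with a median of -0.18. Among adhesion and homing genes 2 of 7 were lower, with a median of -0.71, including the tetraspanin Cd9 (546 and 189 CPM, -1.53).

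Against the rest of the sort the high-count cells stood apart by the genes of the lineage in both libraries. This contrast shares the cells that the rule chose and is a description. Of 2339 measured genes 121 (5.17%) were at least 2-fold above the other cells in both libraries and 77 (3.29%) below, against 21 (0.893%) and 48 (2.04%) of 2351 for all members. Fcer1a was 2183 times the other cells at day 0 and 491 times at day 28, Ms4a2 618 and 202 times, and Il6 481 and 102 times. Cd200r3 came to only 2 and 5 UMIs and Cyp11a1 to 2 and 14 over all other cells, too few at day 0 for a ratio. Among genes outside the textbook set, Rnase12, a member of the ribonuclease A family, was 190 and 146 times the other cells, and Csrp3, a LIM protein known from striated muscle, 252 and 80.6 times. The integrin chain Itga2b, best known from megakaryocytes, was 34.0 and 20.7 times, and the inhibitory receptor Lag3 11.3 and 9.70 times. Each of the ratios named here was larger at day 0 than at day 28, and the level in the other cells differed too: Fcer1a there was at 0.913 CPM at day 0 and 1.86 at day 28.

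Progenitor-marked cells of the sort were set beside them as well. Against Elane cells 143 of 2361 genes (6.06%) were at least 2-fold above in both libraries and 87 (3.68%) below, and against Car1 or Pf4 cells 341 of 2295 (14.9%) and 258 (11.2%). Gata2 was 259 and 118 times its level in Elane cells, Lat 22.3 and 25.9 times and Apoe 24.7 and 18 times. Ly6c2, a surface protein of the monocyte lineage, was at 0.0670 and 0.0848 times. In Car1 or Pf4 cells Cebpa came to 1 and 6 UMIs in all and Hdc to 3 and 8, too few for a ratio. The high-count cells thus differed from the erythroid and megakaryocyte side by more genes than from the Elane side.

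Genes shared with Elane cells were nonetheless present. Mpo, the myeloperoxidase of neutrophil and monocyte precursors, had 0 to 188 UMIs per cell at day 0 (median 8) and 0 to 128 at day 28 (median 7), or 2702 and 1424 CPM (-0.92). Prtn3, proteinase 3, was at 416 and 693 CPM (0.73), and Ms4a3, a gene of committed granulocyte and monocyte progenitors, at 1120 and 706 (-0.67). Elane itself had a median of 0 and 2 UMIs, and 1 cell held 89.3% of its 1424 CPM at day 0. T cell marker cells outside the members also held these mRNAs after thinning: Mpo in 8.94% and 36.0% and Ctsg in 4.47% and 28.1%. In high-count cells the shares were 78.8% and 81.0% for Mpo and 93.9% and 93.7% for Ctsg. At the lowest level among T, B-lineage and erythroid marker cells, the progenitor list summed to 343 and 1702 CPM. The part of free RNA in these levels was not tested. The 6 measured genes of that list had a median of -0.76, which turned to 0.66 without the cells that carried markers of another lineage, so its direction depended on those cells.

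Within each library the high-count cells with the smallest share of protease mRNA had less of the other basophil genes. That share comes from the genes that chose the cells, so the order is a description. High-count cells were ranked by the share of their UMIs from Prss34 and Mcpt8 and divided into 3 bands, 11 cells each at day 0 and 27, 26 and 26 at day 28, after thinning. The other 10 basophil markers summed to 64.8, 108 and 110 UMIs per 10000 from the lowest to the highest band at day 0, and to 20.7, 42.8 and 58.8 at day 28. Fcer1a went from 13.3 through 25.8 to 23.3 at day 0 and from 5.19 through 9.10 to 17.1 at day 28. The lowest band therefore stood apart at day 0, while at day 28 the levels climbed across all 3 bands. Secreted cytokines gave 66.1, 186 and 157 at day 0 and 15.7, 44.4 and 61.7 at day 28. Markers of granulocyte and monocyte progenitors ran the other way in the lowest band, at 103, 49.1 and 53.9 and at 60.7, 34.9 and 41.4. Early progenitor genes went from 10.3 through 6.36 to 5.15 and from 13.5 through 9.87 to 7.69. Median raw depth was 8960, 7134 and 8607 UMIs by band at day 0 and 13619, 8239.5 and 7302.5 at day 28, so depth moved with the bands at day 28 and its part was not tested.

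Cell cycle genes rose across the bands at day 0 but not at day 28. They were at 15.8, 17.9 and 26.1 UMIs per 10000 across the bands at day 0 and at 19.8, 14.5 and 35.6 at day 28. Cells richest in the proteases thus had the highest cycle level in both libraries, with the lowest value in the middle band at day 28.

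The high-count cells also varied along an axis with Mpo and Ctsg at one end and Ccl3 and Ccl4 at the other. This axis was chosen after seeing the values. Over 33 cells at day 0 and 79 at day 28, thinned to 3000 UMIs, the summed UMIs of these pairs had Spearman correlations of -0.73 and -0.46. Points are cells of 1 library and share its depth and free RNA, and raw depth correlated with Mpo and Ctsg at 0.78 and 0.36 and with Ccl3 and Ccl4 at -0.68 and -0.52. At day 0 the 14 cells with fewer than 10 UMIs of Mpo and Ctsg had 0 to 134 UMIs of Ccl3 and Ccl4 with a median of 53.5, and the 19 cells with 10 or more had 0 to 53 with a median of 2. At day 28 the values were 0 to 65 with a median of 5 in 55 cells, and 0 to 12 with a median of 0 in 24 cells. Of the cells with 10 or more UMIs of Mpo and Ctsg, 6 of 19 at day 0 and 2 of 24 at day 28 also had 10 or more of Ccl3 and Ccl4.

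Other genes lay along that axis. Ccl3 and Ccl4 went with Il6 (0.59 and 0.35), Hdc (0.55 and 0.39) and Cd200r3 (0.60 and 0.30). Mpo and Ctsg went with the cell cycle list (0.57 and 0.24), whose median was 0.5 UMIs at day 0 in the cells low in Mpo and Ctsg and 9 in the cells high in them, against 4 and 8 at day 28. With Ccl3 and Ccl4 the cell cycle list correlated at -0.46 at day 0 and 0.16 at day 28, so it lay along the axis at day 0 only. Median raw depth of the same cells was 6096.5 and 10609 UMIs at day 0 and 7856 and 14362.5 at day 28. The cells high in Mpo and Ctsg were thus deeper and more often held cycle mRNAs in both libraries. Between the days the cells high in Mpo and Ctsg were 19 of 33 and 24 of 79, while the cytokine level of the low ones was a median of 53.5 against 5, so the lower Ccl3 and Ccl4 at day 28 was present within the cells low in Mpo and Ctsg.

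**Figure D5:**
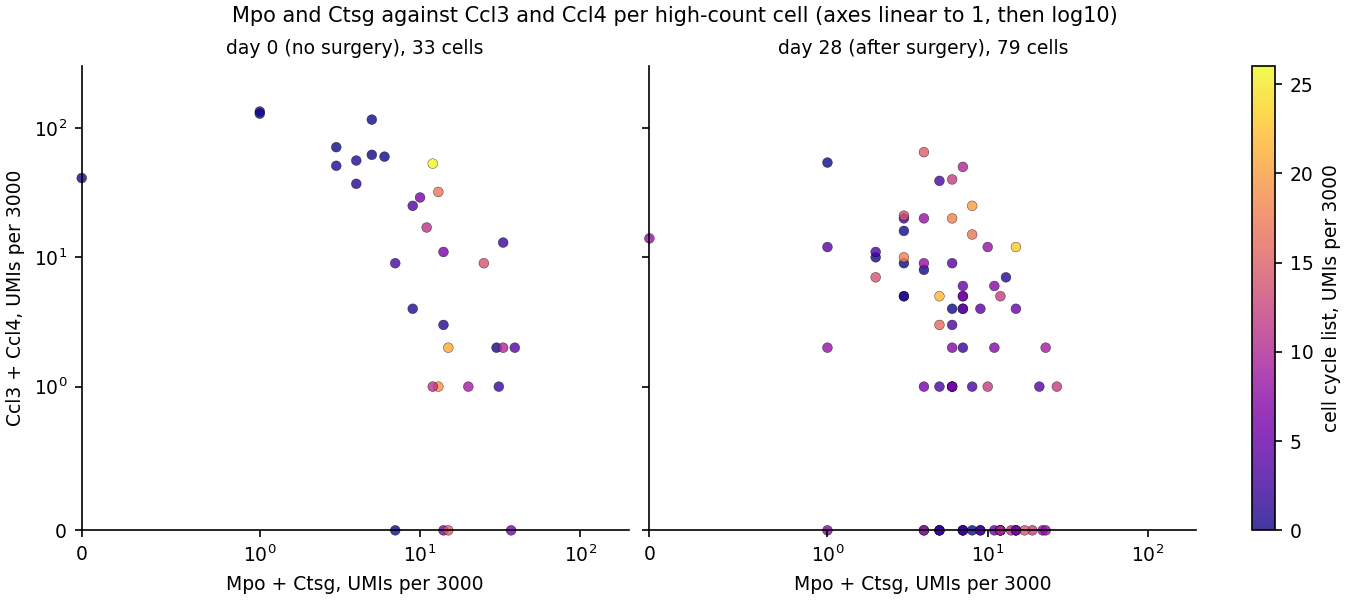
Summed Mpo and Ctsg UMIs (x axis) and summed Ccl3 and Ccl4 UMIs (y axis) per 3000 UMIs in each high-count cell at day 0 and day 28 (panels), coloured by the UMIs of the cell cycle list; cells with equal values share a point. At day 0, 6 of the 19 cells with 10 or more UMIs of Mpo and Ctsg also have 10 or more of Ccl3 and Ccl4. Day 28 cells reach at most 65 UMIs of Ccl3 and Ccl4.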

How the data were processed

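The deposited values of both droplet libraries are raw UMI counts, whole numbers per the file headers that the authors had not normalised. Tools named in the submitters' processing notes were Cell Ranger 2.1.1 and STAR, with build mm10; STAR's version and parameters are not given in the sources used here. The labels name 3' v1 chemistry, while barcodes are 16 bases long. A minimum of 500 genes and a maximum of 10% mitochondrial UMIs left 2666 of 2668 and 2636 of 2653 barcodes, whose UMIs were summed and scaled to CPM.

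The members and gene lists were chosen with earlier results of these data known. Genes were named by rule: 20 fixed lineage genes, the 25 with the highest lower ratio against other cells, the 12 highest and 12 lowest day 28 ratios at a mean of 100 CPM or more, and in each list up to 4 with the highest CPM and the 2 highest and 2 lowest ratios. Other names were chosen after their values were seen. Intervals are exact at 95% (Clopper-Pearson for shares, conditional binomial for ratios). A gene at 0 was set to a floor of 3 UMIs over the group. Shares and per-cell scores used cells thinned to 3000 UMIs (seed 1). Scrublet (scanpy 1.11.5) gave doublet scores; its automatic threshold marked 0.490% of cells, so the top 56 scores per library were used as an alternative and no cell was removed. Gene coordinates follow GENCODE M21, which held 27645 of 27998 identifiers, and promoters follow RefSeq on GRCm38.p6. The counting and interval code was tested on simulated data. Alternatives covered the UMI threshold, thinning, mitochondrial filter, doublets, cells with markers of other lineages, scaling, per-cell means and filters on low counts. Software was Python 3.11.15 with numpy 2.4.6, scipy 1.17.1, pandas 2.3.3 and matplotlib 3.10.9.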

Additional observations from a re-analysis of the deposited data

Results flagged for a closer look

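In some genes the pooled value differed between the libraries one way in high-count cells and the other way in cells that were not members. The 3 genes with values below are not a full count. Il6 and Ms4a2 were likewise lower at day 28 in the high-count cells and higher in the other cells. Each difference rests on 1 library per day and was not tested. Fcer1a had a log2 ratio of day 28 over day 0 of -1.12 in the high-count cells and 1.03 in the other cells, where it was at 0.913 and 1.86 CPM. Cyp11a1 gave -1.32 and 2.02, at 0.107 and 0.434 CPM in the other cells, which is 2 and 14 UMIs with a ratio interval of 0.928 to 36.6 that holds 1. Both are thus near the lowest measurable level outside the lineage. Prg2 gave at least 7.52 in the high-count cells, against the floor of 3 UMIs over the day 0 cells, and -1.76 in the other cells. Its 1579 UMIs at day 28 came from 8 of 79 cells, with 66.1% in 1 of them.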

How the results depend on the processing

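The ratio of the members' shares, 4.89 by the raw rule, was 2.42 with at least 10 UMIs and 2.28 with at least 3 UMIs after thinning to 3000. For the high-count cells it lay between 1.64 and 3.0 over the 5 alternatives tried. For all members the genes higher at day 28, 15 by the rule, were 37 with at least 10 UMIs, 37 with at least 3 after thinning, 23 without the top doublet scores, 75 with thinned sums, 28 with per-cell means, 571 without a CPM minimum and 4 among genes at least 3 times their level in reference cells. The genes lower, 88, were 166, 148, 229, 152 and 606 with at least 10 UMIs, 3 after thinning, thinned sums, per-cell means and no CPM minimum. For the high-count cells the 37 higher genes became 60 with the median ratio set to 1, 127 with thinned sums, 62 with per-cell means, 327 without a CPM minimum and 4 against reference cells, and the 166 lower became 395 without a CPM minimum. Genes at least 2-fold above the other cells, 21 for all members, were 121 with at least 10 UMIs, 53 with per-cell means and 186 without a CPM minimum. The cell cycle level of the highest over the lowest of 3 equal bands of all members by protease share, a log2 of -0.34, reversed to 0.80 with at least 10 UMIs. The high-count median of granulocyte and monocyte progenitor markers, -0.76, reversed to 0.66 without cells carrying other lineage markers and to 0.25 without cells that lacked both Fcer1a and Ms4a2 or held Prg2. Apart from which cells or genes each alternative takes in, the causes were not tested. Of 330 other values of high-count cells under these alternatives, 296 moved by less than their interval, 32 moved by more and 2 reversed, the medians just given; of 359 for all members the numbers were 282, 77 and 0.

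No paired analysis was possible because each group has 1 library with no replicate number. Depth limits Il13, Kit and S100a4, each under 25 UMIs per library in high-count cells. Without replicates no value speaks for variation between animals, and the raw threshold of 3 UMIs takes in Elane-positive cells, 168 of the 211 low-count members at day 28.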
